A study of Mus musculus with 8 samples.

Results

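The Schlafen genes *Slfn1*, *Slfn2*, *Slfn3*, *Slfn4*, *Slfn5*, *Slfn8* and *Slfn9* were followed in HCA-1 liver tumors after PFSUV-IMQ, which is imiquimod (IMQ), an agonist of toll-like receptor 7 (TLR7), loaded in phospholipid-free small unilamellar vesicles. They are the rows of the deposited tables that carry these 7 symbols, out of 55536 counted genes. HCA-1 is a mouse hepatocellular carcinoma line, and it was implanted orthotopically in the livers of male C3H mice, whose age the labels give as 6 to 8 weeks. On day 17 mice got 1 intravenous dose of PFSUV-IMQ or, by the methods of the study, saline, and 4 tumors per group were collected 3 h afterwards. The labels number the saline tumors 1, 3, 4 and 5 and the treated tumors 1, 2, 3 and 4, and no other agent or allele separates the groups. The implanted cells are a single line and the control was saline, so an effect of the empty vesicle and an effect of IMQ cannot be told apart.

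Schlafen genes are found in mammals as a small family that takes its name from the German word for sleeping, after the growth arrest seen when its founding members were expressed in thymocytes. The short mouse proteins, such as Slfn1 and Slfn2, hold little more than the shared core, Slfn3 and Slfn4 carry an added linker domain, and the long proteins Slfn5, Slfn8 and Slfn9 end in a helicase-like domain. Several members cut or bind transfer RNA and restrict translation or viral replication. Many Schlafen genes are induced by type I interferon, the cytokine that plasmacytoid dendritic cells and other cells release after TLR7 is engaged.

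Total counts ranged from 16883911 to 27687756 per saline tumor and from 17008151 to 18527613 per PFSUV-IMQ tumor. A level of 3 counts, the limit that a count of 0 allows, corresponds to 0.108 to 0.178 CPM, the counts scaled to library size. It covers counting error only. Values below are CPM normalized by edgeR's TMM method. The epithelial genes *Krt8* and *Krt18* were abundant in every tumor group (686 and 886 CPM on average after saline), whereas the fetal liver markers *Afp* and *Gpc3* averaged only 5.46 and 1.23 CPM after saline. One treated tumor, PFSUV-IMQ replicate 2, differed in make-up. A list of 8 hepatocyte genes summed to 34060 CPM in it and to 6233 to 8909 CPM in the other 3 tumors, and a list of 7 liver tumor cell genes summed to 3955 CPM against 7557 to 8831 CPM. Saline replicate 4 had a similar make-up, with 33054 CPM of hepatocyte genes and 3139 CPM of liver tumor cell genes. The members' fold changes are therefore given with and without PFSUV-IMQ replicate 2. These are whole tumors, in which fewer cells of a type and less RNA per cell cannot be told apart.

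All 7 genes lie within 263806 bases of chromosome 11 of the GRCm38 build (82951349 to 83215154, GENCODE M21 annotation). In order along the chromosome they are *Slfn5* (82951349 to 82964840, plus strand), *Slfn9* (82978390 to 82991830, minus strand), *Slfn8* (83002158 to 83020810, minus strand), *Slfn2* (83065112 to 83070678), *Slfn1* (83116849 to 83122670), *Slfn4* (83175186 to 83190216) and *Slfn3* (83191330 to 83215154), the last 4 on the plus strand. All are annotated as protein coding. The members arose by duplication, and several still share sequence with each other or with a pseudogene, which bears on how reads were assigned. Of the 50-base words in the longest transcript, 18.5% of *Slfn3*, 15.4% of *Slfn8*, 11.9% of *Slfn9*, 11.8% of *Slfn5*, 11.6% of *Slfn4* and 4.27% of *Slfn2* also occur in a transcript of another gene, and for *Slfn1* it is 0.606%. The partner that shares most with *Slfn3* is *Slfn4*, with 7.97% of the words, and that of *Slfn8* is the pseudogene *Slfn10-ps*, with 10.7%. Words were sought on both strands, and the first partner of *Slfn5* is its antisense gene *Slfn5os*, with 7.9%. No other member is among the main partners of *Slfn5*. Exons of the antisense gene *Slfn5os* overlap 8.84% of the exon bases of *Slfn5*, and the sources used here do not state whether the counting used strand.

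Upstream of the start sites the members differ in the short motifs and words they hold. These are shown as a description, and their part in the response was not tested. All 7 have an entry among the RefSeq promoters (GRCm38.p6, 250 bases before to 50 bases after the start). GAAA followed by any 2 bases and a further GAAA, a core of the interferon-stimulated response element through which type I interferon acts on its target genes, was searched on both strands. It occurs in *Slfn5*, *Slfn8* and *Slfn9* and in 3.44% of the 32851 promoters. The matches are in capitals in these stretches, each written in the direction of its gene, and in the last 2 the match reads on the opposite strand.
Slfn5 (chr11:82951917-82951986, plus strand): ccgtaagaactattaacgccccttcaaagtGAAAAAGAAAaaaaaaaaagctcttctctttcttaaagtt
Slfn9 (chr11:82991836-82991905, minus strand): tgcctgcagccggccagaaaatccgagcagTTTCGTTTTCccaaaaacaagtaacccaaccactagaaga
Slfn8 (chr11:83020819-83020888, minus strand): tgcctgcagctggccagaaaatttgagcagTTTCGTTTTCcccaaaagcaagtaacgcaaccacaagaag

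The match starts at position -155 from the RefSeq start site in *Slfn5*, at -45 in *Slfn9* and at -48 in *Slfn8*. For *Slfn5* the RefSeq start differs from the GENCODE start given above. Its printed stretch, from 82951917, lies downstream of the GENCODE start at 82951349, within the annotated gene. The same core with a C after it is held by *Slfn8* and *Slfn9*, and by 0.819% of all promoters. Over the 250 upstream bases *Slfn8* and *Slfn9* were identical at 80.2% of aligned positions, gaps included, against 45.5% to 53.4% for every other pair of members. The letters TTCNNNGAA, a core of the gamma-activated site, which read the same on either strand, are in none of the 7 windows and in 8.30% of all promoters. *Slfn1*, *Slfn2*, *Slfn3* and *Slfn4* have no match to the interferon core in this window. Their longest word in common upstream of the start is ACTTCCTGG, which holds the GGAA core of ETS factor sites on the opposite strand. Searched on both strands, it occurs in the upstream bases of 0.700% of promoters. It was noticed by comparing these sequences, is a description only, and is in capitals here.
Slfn1 (chr11:83116716-83116784, plus strand): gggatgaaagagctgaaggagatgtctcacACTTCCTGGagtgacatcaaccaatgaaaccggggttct
Slfn2 (chr11:83065027-83065095, plus strand): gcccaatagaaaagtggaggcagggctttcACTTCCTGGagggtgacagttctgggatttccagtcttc
Slfn3 (chr11:83191258-83191326, plus strand): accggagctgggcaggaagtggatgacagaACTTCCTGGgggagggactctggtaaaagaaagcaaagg
Slfn4 (chr11:83175083-83175151, plus strand): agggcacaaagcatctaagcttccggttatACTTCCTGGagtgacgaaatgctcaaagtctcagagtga

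Whether the family responded to PFSUV-IMQ was asked by comparing the 2 groups of tumors in a fit across all 15998 genes with enough counts (quasi-likelihood test of edgeR, Benjamini-Hochberg adjusted). A gene was called where log2FC, the log2 fold change of PFSUV-IMQ over saline, exceeded 1 in size at an adjusted p under 0.05. All 7 members passed the filter on low counts. Of these, 6 rose, none fell, and *Slfn3* did not pass the test. Over all tested genes, 2.46% were called, 2.26% higher and 0.200% lower. The ranges of the groups did not overlap for any of the 7 members, with PFSUV-IMQ higher each time, which held for 6.00% of tested genes, and 3.28% were apart with PFSUV-IMQ lower. The median log2 fold change of the members was 2.66, beside -0.03 over all tested genes. PFSUV-IMQ replicate 2 was the highest tumor for all 7 members, as it was for 320 of the 362 genes called higher.

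**Figure D1:**
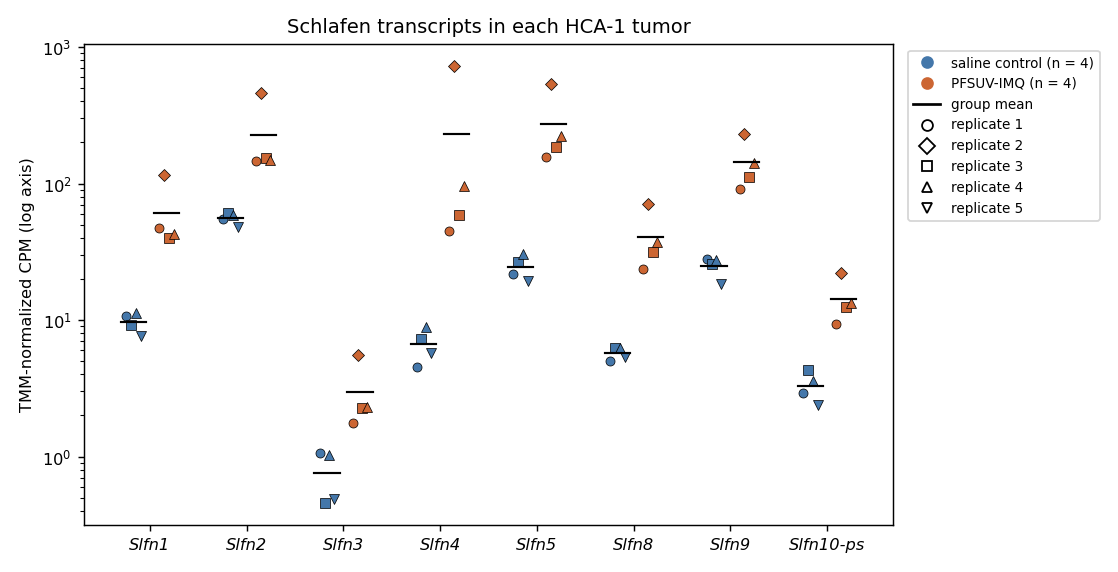
TMM-normalized CPM on a log axis for the 7 Schlafen genes and the pseudogene *Slfn10-ps* in each of the 8 tumors, with the marker shape giving the replicate number and the bar the group mean (n = 4). The groups do not overlap for any gene shown, and PFSUV-IMQ replicate 2 (diamonds) is the highest in each, most apart in *Slfn4* at 728 CPM.

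Among the short members, *Slfn2*, which keeps T cells and monocytes quiescent and shields transfer RNA from cleavage, was the most abundant Schlafen transcript after saline. It stood at 54.9, 60.6, 58.9 and 48.0 CPM in saline replicates 1, 3, 4 and 5, and at 147, 459, 153 and 148 CPM in PFSUV-IMQ replicates 1, 2, 3 and 4. Apart from replicate 2 the treated tumors were close to each other, and all 4 lay above the saline tumors. The means were 55.6 ± 5.62 and 226 ± 155 CPM (SD, n = 4 each), giving a log2FC of 2.02 ± 0.39 SE (edgeR adjusted p = 0.0254). Without PFSUV-IMQ replicate 2 the log2FC 1.40 ± 0.15 SE (edgeR adjusted p = 0.00106). The call was lost when any single saline tumor was left out, with adjusted p values of 0.0917, 0.0830, 0.0686 and 0.0651 without replicates 1, 3, 4 and 5.

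*Slfn1*, the founding member that arrests the growth of thymocytes when expressed in them, was less abundant. Saline tumors held 10.7, 9.21, 11.3 and 7.60 CPM and PFSUV-IMQ tumors held 47.5, 115, 39.8 and 42.8 CPM, in the order of replicates given above. The lowest treated tumor was 3.54 times the highest saline tumor. The log2FC was 2.66 ± 0.36 SE (edgeR adjusted p = 0.00461) and 2.14 ± 0.19 SE (edgeR adjusted p = 3.6e-04) without PFSUV-IMQ replicate 2, and the call was kept with any tumor left out.

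*Slfn4*, a gene of monocytes and macrophages that TLR ligands and interferon induce, changed the most and varied the most. Saline tumors held 4.52, 7.31, 8.93 and 5.76 CPM, and PFSUV-IMQ tumors 45.2, 728, 59.2 and 95.7 CPM. PFSUV-IMQ replicate 2 was thus 10.9 times the mean of the other 3 treated tumors, a ratio that lay between 2.03 and 3.08 for the other members. Its log2FC of 5.13 ± 0.96 SE (edgeR adjusted p = 0.0230) ranked 15th among the 15998 tested genes, and without that tumor it was 3.31 ± 0.31 SE (edgeR adjusted p = 6.1e-04). Even the lowest treated tumor was 5.06 times the highest saline tumor. The call was lost when any single saline tumor was left out, with adjusted p values of 0.0911, 0.0839, 0.0615 and 0.0629 without replicates 1, 3, 4 and 5, and DESeq2 gave no p for this gene, as it does where the count of a tumor departs too far from the rest.

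Saline replicate 4, whose sums of hepatocyte and liver tumor cell genes were close to those of PFSUV-IMQ replicate 2, had 8.93 CPM of *Slfn4* against 728 CPM. These tumors also differ in treatment, and the part of tumor make-up in the level of *Slfn4* was not tested. In the same tumor, PFSUV-IMQ replicate 2, a list of 8 neutrophil genes summed to 162 CPM, against 35.7 to 58.2 CPM in the other treated tumors and 17.8 to 71.1 CPM after saline. The 10 monocyte and macrophage genes summed to 2308 CPM in it, against 1085 to 1972 CPM in the other treated tumors and 1564 to 2502 CPM after saline. None of the 10 monocyte and macrophage genes and none of the 7 tested neutrophil genes was called, and none of them was at 0 in all tumors. The tested neutrophil genes all had positive log2 fold changes, from 0.39 to 2.48 with a median of 1.16. Those of the monocyte and macrophage genes ran from -1.23 to 0.26, with a median of -0.34. The 2 largest changes among the monocyte and macrophage genes were those of *Ccr2* and *Cd163*. Their log2FC values were -1.23 and -1.02 (edgeR adjusted p = 0.0890 and 0.183), which does not show that they did not change. *Retnlg* and *Mmp8*, granule genes of neutrophils with the 2 largest changes of that list, reached 10.97 and 13.6 CPM in PFSUV-IMQ replicate 2. The other treated tumors had 1.87 to 2.06 and 3.74 to 4.97 CPM. *Ngp*, of the same list, was not highest in that tumor. It stood at 7.06, 5.03, 1.28 and 1.10 CPM in PFSUV-IMQ replicates 1, 2, 3 and 4, and at 9.39 CPM in saline replicate 5. The part of these cells in the level of *Slfn4* was not tested.

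*Slfn3*, the close neighbor of *Slfn4*, was barely expressed, with 9 to 24 counts per saline tumor and 32 to 80 counts per PFSUV-IMQ tumor. In CPM this was 1.06, 0.457, 1.03 and 0.489 after saline and 1.77, 5.59, 2.29 and 2.32 after PFSUV-IMQ. The treated tumors lay above the saline tumors, the lowest at 1.67 times the highest saline value. The log2FC of 1.96 ± 0.47 SE (edgeR adjusted p = 0.0696) did not pass the threshold. It did with no filter on low counts (edgeR adjusted p = 0.0332), in edgeR's exact test (adjusted p = 0.00619) and in the Wald test of DESeq2 (adjusted p = 0.00325). When the tumors were left out singly, its edgeR adjusted p ranged from 0.0652 to 0.209.

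Of the long members, *Slfn5*, a nuclear protein that is induced by type I interferon, had the second largest change in the family. Saline tumors held 21.9, 26.6, 30.4 and 19.2 CPM, and PFSUV-IMQ tumors held 156, 534, 184 and 223 CPM. Its lowest treated tumor was 5.13 times its highest saline tumor, the widest gap of the 7 genes. The means were 24.5 ± 4.97 and 274 ± 175 CPM (SD, n = 4 each), an 11.2-fold difference and a log2FC of 3.48 ± 0.41 SE (edgeR adjusted p = 0.00243), or 2.92 ± 0.21 SE (edgeR adjusted p = 1.7e-04) without PFSUV-IMQ replicate 2. *Slfn5os*, on the other strand, had no count after saline and at most 4 after PFSUV-IMQ.

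*Slfn8* and *Slfn9*, the other long members, both rose, from different levels. *Slfn9* stood at 28.1, 25.9, 27.7 and 18.2 CPM after saline and 91.9, 232, 111 and 140 CPM after PFSUV-IMQ. *Slfn8* stood at 5.02, 6.29, 6.23 and 5.32 CPM after saline and 23.6, 70.4, 31.3 and 37.2 CPM after PFSUV-IMQ. In both genes all 4 treated tumors lay above the saline tumors. The log2 fold changes were 2.52 ± 0.30 SE for *Slfn9* (edgeR adjusted p = 0.00259) and 2.83 ± 0.33 SE for *Slfn8* (edgeR adjusted p = 0.00243). Without PFSUV-IMQ replicate 2 they were 2.17 and 2.41 (edgeR adjusted p = 7.1e-04 and 3.3e-04). *Slfn10-ps*, the transcribed pseudogene beside *Slfn8* (83028130 to 83040042, minus strand), rose as well, from 3.30 ± 0.828 to 14.2 ± 5.44 CPM (SD, n = 4 each), with a log2FC of 2.104 ± 0.31 SE (edgeR adjusted p = 0.00749). It shares 19.7% of its 50-base words with other genes, mostly with *Slfn9* and *Slfn8*, so its reads could have been split with theirs. *Slfn14*, the long member at the end of the cluster, had at most 3 counts in a tumor and *Slfnl1*, a relative on chromosome 4, at most 1, so neither could be shown to be expressed at this depth.

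**Figure D2:**
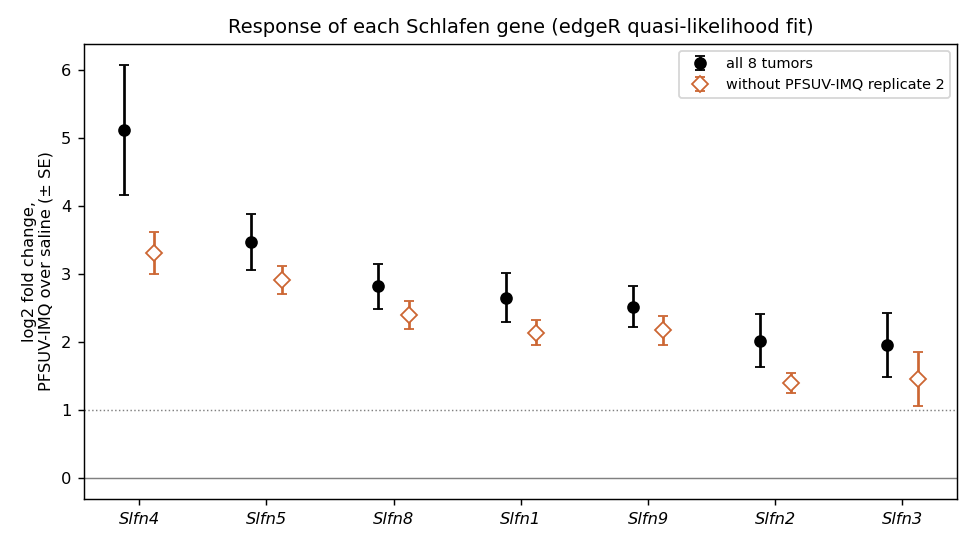
Log2 fold change of PFSUV-IMQ over saline (± standard error) for the 7 Schlafen genes in edgeR's quasi-likelihood fit, with all 8 tumors (filled) and without PFSUV-IMQ replicate 2 (open, 4 against 3 tumors), and a dotted line at the fold limit of 1. *Slfn4* drops from 5.13 to 3.31 and *Slfn5* from 3.48 to 2.92, and every estimate stays above the limit of 1.

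Whether the members responded to different degrees was asked within tumors, since the ratio of 2 genes in a tumor does not depend on its library size. For each of the 21 pairs the per-tumor difference in log2 CPM was set against treatment in a two-sided exact test that permutes the tumors, and 0.0286 is the smallest p it can give with 4 tumors a group. A rise here is the change in mean log2 CPM per tumor, so differences between rises are not those between the edgeR log2FC values above. *Slfn4* and *Slfn5* rose more than most other members. The rise of *Slfn4* exceeded that of *Slfn2* by 2.33, of *Slfn9* by 1.72, of *Slfn1* by 1.65 and of *Slfn8* by 1.47 on the log2 scale, each at exact permutation p = 0.0286 (0.0429 adjusted over the 21 pairs). That of *Slfn5* exceeded that of *Slfn2* by 1.49, of *Slfn9* by 0.87, of *Slfn1* by 0.80 and of *Slfn8* by 0.63, at the same exact p. *Slfn4* and *Slfn5* differed from each other by 0.85 (exact permutation p = 0.0857, 0.106 adjusted), as *Slfn4* minus *Slfn5* spread widely after PFSUV-IMQ (-1.05 ± 1.02, SD, n = 4) and less after saline (-1.90 ± 0.24, SD, n = 4).

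At the other end, *Slfn2* rose less than *Slfn1* by 0.68 and than *Slfn8* by 0.86 (exact permutation p = 0.0286 for each, 0.0429 adjusted), and less than *Slfn9* by 0.62 (exact permutation p = 0.0571, 0.0800 adjusted). Against *Slfn3*, with its few counts, *Slfn4*, *Slfn5*, *Slfn8* and *Slfn1* rose more by 2.38, 1.53, 0.90 and 0.72 (exact permutation p = 0.0286 for each), while *Slfn9* and *Slfn2* differed from it by 0.66 and 0.04 (exact permutation p = 0.0857 and 0.971). *Slfn1*, *Slfn8* and *Slfn9* differed by 0.07 to 0.24 (exact permutation p from 0.143 to 0.743), beside a spread of 0.10 to 0.37 log2 units (SD) of these pairs within a group, which does not show that they respond alike. In all, 14 of 21 pairs were at the smallest p, and an adjusted p under 0.05 needs at least 13 of them there. With any tumor left out, or with a prior count of 0.5 in place of 2 in the log2 CPM, 0 pairs passed after adjustment, the smallest adjusted p values being 0.05 to 0.0667 by the same exact test.

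**Figure D3:**
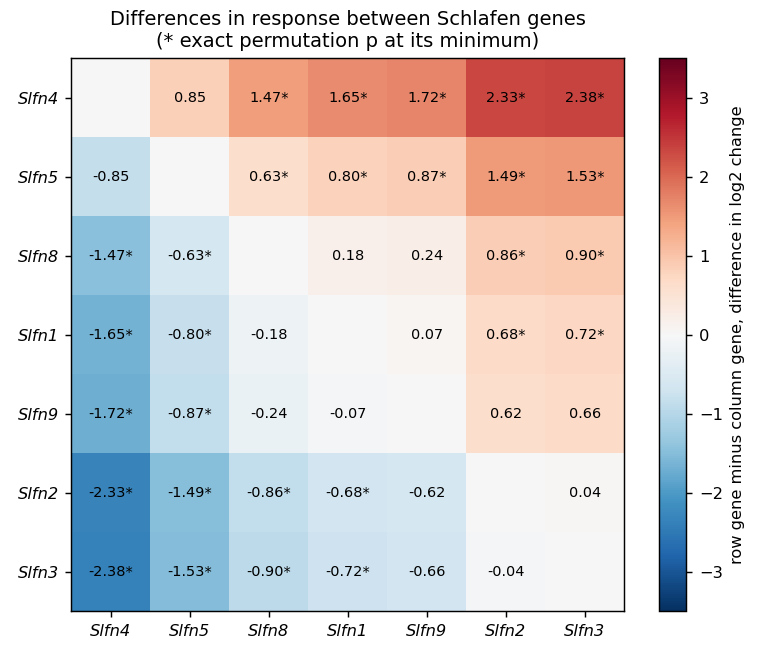
Difference in log2 change (PFSUV-IMQ minus saline) between the gene of the row and the gene of the column, computed within each of the 8 tumors, with an asterisk where the exact permutation p is at its smallest value of 0.0286. The rows of *Slfn4* and *Slfn5* are positive against all genes below them, and *Slfn1*, *Slfn8* and *Slfn9* differ by at most 0.24 from each other.

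Levels were compared between genes per exon length, as RPKM (TMM-normalized CPM per kilobase of annotated exon). After saline, *Slfn2* led at 33.4 ± 3.38 RPKM and made up 67.0% ± 1.97 of the summed RPKM of the family (SD, n = 4). *Slfn1*, *Slfn9* and *Slfn5* followed at 5.20 ± 0.884, 4.19 ± 0.773 and 3.88 ± 0.786 RPKM, with overlapping ranges, then *Slfn4* and *Slfn8* at 1.67 ± 0.483 and 1.40 ± 0.156 RPKM, whose ranges also overlapped, and *Slfn3* at 0.223 ± 0.0971 RPKM. The saline ranges of *Slfn2* and *Slfn1* did not overlap, nor did those of *Slfn5* and *Slfn4* or of *Slfn8* and *Slfn3*. Within tumors, *Slfn1* was above *Slfn9* in all 4 saline tumors, *Slfn9* above *Slfn5* in 3 and *Slfn4* above *Slfn8* in 3.

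After PFSUV-IMQ the pool was larger and made up differently. *Slfn2* still led in all 4 tumors, at 136 ± 93.1 RPKM, but its share of the family was 46.6% ± 4.80, with 41.6% to 51.4% per tumor. The share of *Slfn5* was 7.71% ± 0.784 in saline tumors (6.98% to 8.74%) and 15.05% ± 1.93 in treated tumors (12.7% to 17.2%), without overlap. *Slfn4* took 3.33% ± 0.750 after saline and 13.6% ± 9.66 after PFSUV-IMQ, of which 27.7% in replicate 2, and 8.86% ± 2.66 in the other 3 tumors. By mean level *Slfn4* was second at 58.5 ± 83.6 RPKM, yet it exceeded *Slfn5* in 1 of 4 tumors, and without replicate 2 it ranked 5 of 7 at 16.8 ± 6.58 RPKM. *Slfn8* and *Slfn3* remained the lowest, at 9.93 ± 5.03 and 0.876 ± 0.513 RPKM.

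**Figure D4:**
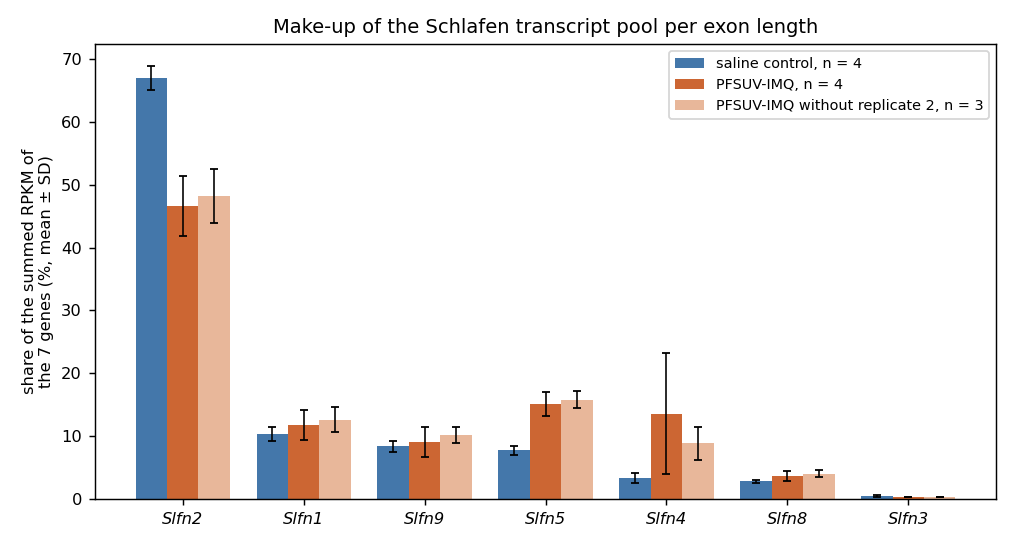
Share of each gene in the summed RPKM of the 7 Schlafen genes (mean ± SD over tumors) after saline, after PFSUV-IMQ, and after PFSUV-IMQ without replicate 2. *Slfn2* falls from 67.0% to 46.6% of the pool, and the shares of *Slfn5* and *Slfn4* are larger after PFSUV-IMQ (15.05% and 13.6%) than after saline (7.71% and 3.33%).

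Genes around the cluster were read in the same fit. Within 500 kb on either side of the members, 23 other genes passed the filter on counts. The 1 gene called among them was *Slfn10-ps*, which lies between *Slfn8* and *Slfn2*. Over all tested genes 2.46% were called, so the lack of other calls among so few genes does not set the region apart. *Unc45b*, a myosin chaperone gene that ends at 82943403, before *Slfn5*, had a log2FC of 0.19 ± 0.43 SE (edgeR adjusted p = 0.919). On the other side *AI662270*, 8422 bases past *Slfn3*, had one of 0.29 ± 0.39 SE (edgeR adjusted p = 0.842). The pseudogene *Gm11427*, 9300 bases past *Slfn3*, shares 50-base words with *Slfn3* and *Slfn4*, and its log2FC of 1.21 ± 0.48 SE (edgeR adjusted p = 0.316) did not pass. Farther out, 447430 bases past *Slfn3*, the chemokine gene *Ccl4* had the largest value among the genes not called, 1.89 ± 0.50 SE (edgeR adjusted p = 0.101), near that of *Slfn3*. The median log2 fold change of the 23 genes was 0.19, and an adjusted p above the threshold does not show that a gene did not change.

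**Figure D5:**
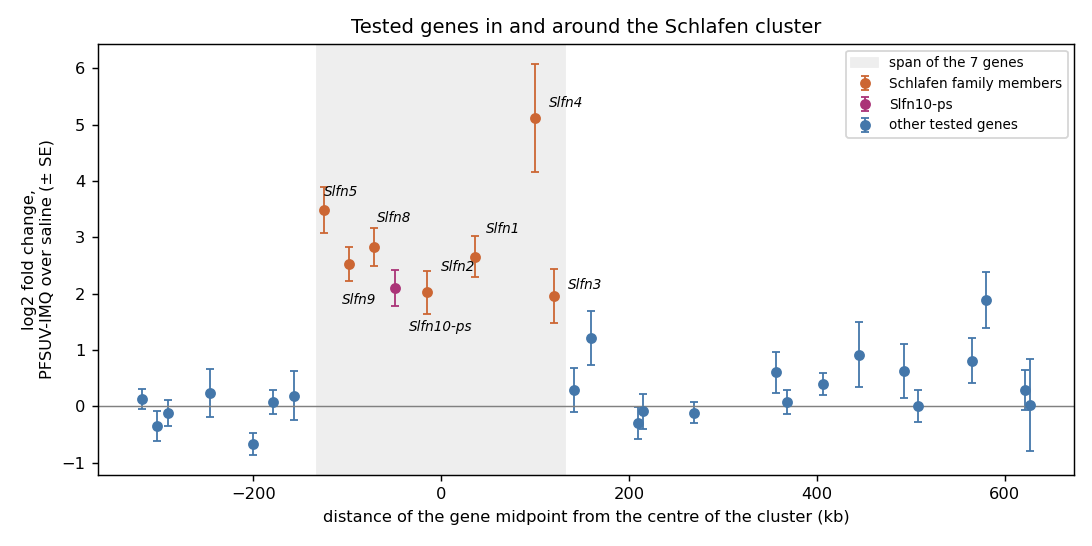
Log2 fold change (± standard error) of every tested gene within 500 kb of the Schlafen cluster against the distance of its midpoint from the centre of the cluster, with the span of the 7 genes shaded. The members and *Slfn10-ps* lie between 1.96 and 5.13, and no gene outside the shaded span was called.

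The signaling chain by which TLR7 and type I interferon are known to reach Schlafen genes was read from the same fit, from its ligands to its inhibitors. None of the 17 genes of the type I interferon ligands listed had enough counts to be tested. *Ifnb1*, which encodes interferon beta, had at most 4 counts per saline tumor and at most 7 per PFSUV-IMQ tumor (0.489 CPM in replicate 2), 8 ligand genes were at 0 in every tumor and the other 8 had at most 3 counts in any. The receptor genes *Ifnar1* and *Ifnar2* and the kinase genes *Jak1* and *Tyk2* had log2 fold changes from -0.14 to 0.07 and were not called. The transcription factor genes *Stat2* and *Irf9*, which act downstream of the receptor, were called higher. Mean *Stat2* rose from 102 ± 11.9 to 517 ± 81.3 CPM and *Irf9* from 53.2 ± 7.93 to 127 ± 26.8 CPM (SD, n = 4 each, edgeR adjusted p = 5.0e-04 and 0.00870). So 2 of the 6 genes read at this step rose, 0 fell, and the median log2 fold change was 0.06.

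Among 6 interferon regulatory factors, *Irf7*, which amplifies interferon production, and *Irf2* rose, with log2 fold changes of 2.94 and 1.37 (edgeR adjusted p = 0.00121 and 0.0340), and *Irf1* had 0.87 (edgeR adjusted p = 0.0939). Of 6 inhibitors of the pathway 2 rose, *Usp18* by 4.82 and *Socs1* by 2.74 on the log2 scale (edgeR adjusted p = 5.9e-04 and 0.0137). The treated mean of *Socs1* was 48.6 CPM with PFSUV-IMQ replicate 2 and 30.7 CPM without it, against 7.26 CPM after saline. Of 14 interferon effectors that act on RNA or translation, the step at which Schlafen proteins also work, 12 rose and none fell, with a median log2 fold change of 2.47. *Ifit1*, which binds viral RNA, and *Ifit3* had the largest at 6.05 and 5.39 (edgeR adjusted p = 4.8e-04 for each). *Eif2ak2*, the double-stranded RNA kinase that halts translation, had 2.59 (edgeR adjusted p = 6.6e-04). The members' median of 2.66 lay close to that of these effectors, a comparison that was not tested. As Schlafen proteins are known for growth arrest, 11 cell cycle genes were also read. None was called, and their median log2 fold change was -0.11, with the largest at *Cdkn1a*, a cell cycle inhibitor (0.72, adjusted p = 0.131 from edgeR).

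Markers of the cells that could carry Schlafen transcripts were counted in the same way. None of 8 T cell, 6 B cell or 4 tested plasmacytoid dendritic cell genes was called in either direction, nor any of the 8 hepatocyte or 7 liver tumor cell genes. This does not show that they did not change. In that order the median log2 fold changes were -0.15, 0.35, 0.32, 0.11 and -0.03. Those of the B cell genes ran from -0.64 to 1.91, the highest at *Pax5* (edgeR adjusted p = 0.326). The T cell genes summed to 66.8 to 141 CPM after saline and 64.2 to 150 CPM after PFSUV-IMQ, and the B cell genes to 2.17 to 10.7 and 4.41 to 31.4 CPM, with the highest value of each in PFSUV-IMQ replicate 2. The plasmacytoid dendritic cell genes summed to 6.36 to 9.97 CPM after saline and 6.01 to 12.99 CPM after PFSUV-IMQ. Their 2 largest changes went in opposite directions, with a log2FC of 1.25 for *Ly6d* and -1.11 for *Siglech* (edgeR adjusted p = 0.0979 and 0.271). No marker in these lists was at 0 in all tumors. The 7 Schlafen genes summed to 105 to 145 CPM after saline and to 513, 2143, 580 and 689 CPM in PFSUV-IMQ replicates 1 to 4.

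Each member was finally set beside all tested genes to find the profiles most like its own, by the root mean square difference over the 8 tumors in log2 CPM relative to the saline mean. *Slfn5* lay nearest to *Dhx58* and *Helz2* (0.19 and 0.24), *Slfn9* to *Ddx58* and *Parp12* (0.13 and 0.17) and *Slfn8* to *Trim34b* and *Ddx58* (0.17 and 0.21). *Slfn1* lay nearest to *Znfx1* and then to *Slfn9* (0.22 and 0.24), the 1 case in which another member was among the 2 nearest genes. *Slfn2* was closest to *Ccn2* and *Pnp* (0.16 and 0.19), and *Slfn3* to *Slc37a1* and *Ppp1r3g* (0.14 and 0.25). *Slfn4* had no profile as near, with *Ifi214* and *Ifi208* at 0.53 and 0.59. These are descriptions over the same tumors, in which genes with similar fold changes are near by construction.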

How the data were processed

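RNA of 8 HCA-1 tumors was sequenced from libraries made with a KAPA mRNA HyperPrep kit. The authors deposited whole-number counts of reads per gene. The study's methods name TopHat and HTSeq, whereas the submitters' processing notes list Trimmomatic 0.38, HISAT2 2.1.0 and featureCounts 2.0.0, and the genome build is not given in the sources used here. All 55536 identifiers are in GENCODE M21 (GRCm38), which gave coordinates and lengths. A second table of signal values, which the authors made with DESeq2 by dividing counts by a size factor per tumor, was used for its gene symbols. No count column was left unmapped.

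Counts were normalized by TMM, filtered with filterByExpr and tested with glmQLFTest in edgeR 4.0.16 (R 4.3.3), with Benjamini-Hochberg adjustment over 15998 genes. Standard errors are the log2 fold change divided by the root of the F statistic. DESeq2 1.42.0 served as an alternative, and log2 CPM used a prior count of 2. Tables were prepared in Python 3.11.15. The code was tested on simulated counts. The labels number the tumors, and no source used here says that each came from a mouse of its own, so p-values measure the spread between these samples. Genes were named by rule: all rows with a Slfn symbol, the interferon ligand, receptor, signaling and inhibitor genes, called genes and the 2 largest changes of other lists, called genes and nearest neighbors of the cluster, and the 2 most similar profiles. *Krt8*, *Krt18*, *Afp* and *Gpc3* were added outside the rule to check the tissue, and *Gm11427*, *Ccl4* and *Ngp* after their values were seen. The members and lists were chosen with earlier results of these data known, and 1 gene of the lists is not reported here. Alternatives comprised other size factors, filters and tests, no fold limit, a replicate block and each tumor left out.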

Additional observations from a re-analysis of the deposited data

Results flagged for a closer look

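Values that stood apart from the other 3 tumors of their group were sought by Dixon's ratio in 94 groups of 4 (47 genes), of which 15 were flagged. Chance flags about 1 in 20 groups, but that rate is no yardstick here, since the 47 genes share the same tumors and some were named because their profiles were nearest to those of Schlafen genes. All 15 were in PFSUV-IMQ replicate 2, the tumor with the most hepatocyte and the least liver tumor cell transcript of its group. Among the Schlafen genes these were *Slfn4* at 728 CPM, *Slfn2* at 459 CPM, *Slfn1* at 115 CPM and *Slfn3* at 5.59 CPM, while *Slfn5*, *Slfn8*, *Slfn9* and *Slfn10-ps* did not pass the limit. Of the interferon pathway genes, *Irf7* at 848 CPM and *Socs1* at 102 CPM were high in this tumor. *Ifnb1* at 0.489 CPM was also flagged, on 7 counts against 4, 3 and 3 in PFSUV-IMQ replicates 1, 3 and 4. Counts this low do not show that *Ifnb1* was higher in this tumor. The neutrophil genes *Mmp8* at 13.6 CPM and *Retnlg* at 10.97 CPM were high in it, and the fetal liver marker *Afp* was low at 2.096 CPM. Among the genes with profiles near those of the members, *Ccn2* at 234 CPM, *Dhx58* at 210 CPM, *Ifi214* at 75.0 CPM, *Slc37a1* at 21.0 CPM and *Ppp1r3g* at 1.75 CPM were high in it.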

How the results depend on the processing

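The direction of all 7 Schlafen genes was kept under every alternative tried. Of the 7 members, 7 were called with no filter on low counts and in edgeR's exact test, and 4 when any saline tumor was left out. The Wald test of DESeq2 called 6, *Slfn3* among them, and gave no p for *Slfn4*. *Slfn3* passed the threshold with no filter on low counts (log2 fold change 1.96), in the exact test (1.96) and in DESeq2 (1.97), and could not be fitted where at least 10 counts were required in every tumor. With each tumor left out, log2 fold changes ranged from 1.40 to 2.19 for *Slfn2* and from 3.31 to 5.47 for *Slfn4*, the 2 genes that lost their calls, and from 4 to 6 members were called. Of the pairs of members, 0 then passed, as with a prior count of 0.5 (0 pairs), against 14 with all tumors and a prior count of 2. Over all genes, 197 to 375 were called higher and 8 to 38 lower with a tumor left out, beside 362 and 32 with all. DESeq2 called 619 higher and 131 lower, edgeR's exact test 92 lower and the fit with no filter 63 lower. Both groups hold replicates 1, 3 and 4, but no source used here says that these numbers pair the tumors. Correlations of same-numbered deviations were 0.293, -0.268 and -0.316. Those of differently numbered tumors ran from -0.64 to 0.68, so these values cannot decide whether tumors were paired. With a replicate block, in which the tumors numbered 2 and 5 add nothing to the contrast, 416 genes were called higher and 267 lower, the same 6 members were called, and *Slfn4* had a log2 fold change of 3.25 and *Slfn2* of 1.36. *Slfn3* had 9 counts in the shallowest tumor, and the part of depth in its missing call was not tested.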
